A study of Arabidopsis thaliana with 4 samples.

Results

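The genes described here belong to one ribosomal protein cluster of the Arabidopsis thaliana chloroplast genome. In gene order they run from rps19 through rpl22, rps3, rpl16, rpl14 and rpl36 to the polymerase gene rpoA. Members were the probe sets that the platform annotation pairs with exactly 1 gene bearing one of these symbols and whose gene record lies on the plastid genome. All 7 genes had 1 such probe set, among 69 plastid-encoded genes and 13356 genes in all with a single-gene probe set. A separate probe set annotated with both mitochondrial rps3 and mitochondrial rpl16 was left out, since those are other genes with the same symbols.

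Total RNA of 3-week-old plants of an albino mutant line, DS 13-2198-1, was profiled on 4 arrays, with 2 arrays per group. The control plants were segregants of normal appearance and the albino plants were segregants of the albino phenotype, all from 1 parental line and raised side by side on diluted Murashige and Skoog medium with 2% sucrose at 23 °C, in 16 h of light and 8 h of dark. The labels name neither the disrupted gene nor the genotype of the normal segregants, which may carry the mutation without showing it, and they do not say how many plants were pooled. The titles and source names set the groups, while a description shared by all 4 samples speaks of wild type, so the arrays are called labelled albino or labelled control. Values are log2 RMA summaries of each probe set, a scale on which a difference of -1 is a 2-fold lower signal. Replicate numbers 1 and 2 each occur once per group, and the value distributions look as if the 2 arrays of a number were normalized together. The albino array minus the control array of the same number is therefore given as pair 1 and pair 2.

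Chloroplasts make some of their own proteins on ribosomes of bacterial type, and part of the proteins of those ribosomes is still encoded in the chloroplast genome. The cluster keeps much of the gene order of the bacterial S10, spc and alpha operons, in which ribosomal protein genes are followed by the gene for the alpha subunit of RNA polymerase. In chloroplasts that polymerase, of bacterial type with its core subunits encoded by rpoA, rpoB, rpoC1 and rpoC2, transcribes most photosynthesis genes, while a phage-type polymerase encoded in the nucleus transcribes several housekeeping genes. Cluster genes of chloroplasts are commonly copied into shared transcripts, so a probe set reads the RNA of its own stretch rather than a separate messenger.

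In both pairs of arrays 6 of the 7 cluster genes had a lower value in the albino plants, and rpl16 was lower in pair 2 alone. The median difference of the 7 genes was -0.55, with -0.54 in pair 1 and -0.83 in pair 2. Over all 22746 probe sets the median difference was 0.022, and 28.5% of probe sets were lower in both pairs. The groups did not overlap, with both labelled albino arrays below both labelled control arrays, for 4 of the 7 genes (rpl22, rpl14, rpl36 and rpoA), against 13.6% of all probe sets. No member passed limma's test at a Benjamini-Hochberg adjusted p under 0.05, and 0% of all probe sets passed it in that direction. At an unadjusted p under 0.05, rpl36 and rpoA passed as lower, 2 of 7 against 3.08% of all probe sets. Without albino replicate 2 the median difference was -0.27, and it was -0.86 without albino replicate 1 and -0.88 without control replicate 2. In bulk RNA of whole plants, fewer cells with chloroplasts and less of these transcripts per cell cannot be told apart.

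**Figure D1:**
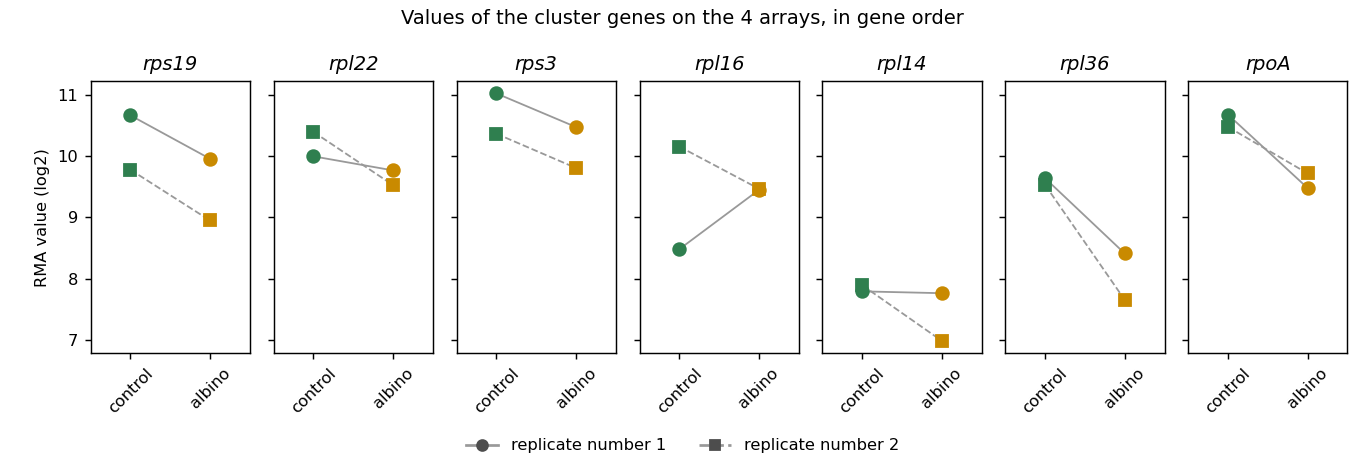
RMA values (log2, vertical axis) of the 7 cluster genes in gene order, with labelled control arrays in green and labelled albino arrays in orange, and lines joining the arrays of 1 replicate number (circles and solid lines for 1, squares and dashed lines for 2). Lines descend in both pairs for every gene but rpl16; heights are not comparable between panels, since each probe set has its own response.

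The small-subunit protein gene rps19 is the first of the members in this order. In bacteria its product sits in the head of the small ribosomal subunit. The labelled control arrays gave 10.67 and 9.78 for replicates 1 and 2, and the labelled albino arrays 9.96 and 8.95. The groups overlapped, because albino replicate 1 lay above control replicate 2. Within pairs the differences were nearly alike, -0.71 and -0.83, and the overall difference was -0.77 (SE 0.47, limma adjusted p = 1.0). The gap between the 2 control arrays, 0.88, was larger than this difference. The difference ran from -1.28 without albino replicate 1 to -0.27 without albino replicate 2, and it was -0.33 without control replicate 1 and -1.21 without control replicate 2.

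For rpl22, whose product in bacteria lines the tunnel by which the new protein leaves the large subunit, the labelled control arrays read 10 and 10.4 and the labelled albino arrays 9.77 and 9.53. Both albino values lay below both control values. The difference was -0.55 (SE 0.28), made up of -0.23 in pair 1 and -0.87 in pair 2, and it was -0.35 without control replicate 2.

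The next gene, rps3, codes for a small-subunit protein that in bacteria lies where the messenger RNA enters the ribosome. It read 11.03 and 10.37 in the labelled control arrays and 10.48 and 9.81 in the labelled albino arrays. As for rps19, the arrays of number 1 lay above those of number 2 in both groups, so the groups overlapped. The differences in the pairs were -0.54 and -0.56, closer together than for any other member, and the overall difference was -0.55 (SE 0.37). Leaving out 1 array gave -0.89 (albino replicate 1), -0.88 (control replicate 2), -0.22 (control replicate 1) and -0.21 (albino replicate 2).

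The values of rpl16 were discordant. This large-subunit protein gene, whose product in bacteria lies near the site where the incoming transfer RNA binds, read 8.48 and 10.16 in the labelled control arrays and 9.45 and 9.47 in the labelled albino arrays. Control replicate 1 was the lowest and control replicate 2 the highest of the 4 arrays, and the albino arrays lay between them, 0.012 apart. The difference was 0.97 in pair 1 and -0.69 in pair 2, and 0.14 overall (SE 0.56). Without control replicate 1 it became -0.70, and without control replicate 2 it was 0.98, so its direction rested on which control array was kept. The flanking genes rps3 and rpl14 did not show such a gap between the control arrays, which differed by 0.66 and 0.10.

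In rpl14, which codes for a large-subunit protein at the face between the subunits in bacteria, the labelled control arrays read 7.79 and 7.89 and the labelled albino arrays 7.76 and 6.98. Its mean value exceeded that of 73.6% of all probe sets, so it was not among the dim ones. The groups did not overlap, yet albino replicate 1 was lower than its control by no more than -0.025 on the log2 scale. Nearly all of the difference of -0.47 (SE 0.34) came from pair 2, at -0.91. It was -0.86 without albino replicate 1 and -0.077 without albino replicate 2.

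The lowest difference belonged to rpl36, the gene of a very small protein bound to the ribosomal RNA of the large subunit in bacteria. The labelled control arrays read 9.64 and 9.53 and the labelled albino arrays 8.41 and 7.65. The control arrays nearly coincided, and both albino arrays lay far below them. The signal in the labelled albino arrays was 0.429 of the control signal in pair 1 and 0.271 in pair 2, differences of -1.22 and -1.88. Of the members it alone was at least 2-fold lower in both pairs, which 0.963% of all probe sets were. In pair 2 only 0.00879% of probe sets had a lower difference, and in pair 1 2.53% did. The overall difference of -1.55 (SE 0.34) had limma adjusted p = 0.645.

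The cluster ends with rpoA, whose product, the alpha subunit, in bacteria forms the dimer on which the polymerase is assembled. It read 10.68 and 10.48 in the labelled control arrays and 9.48 and 9.72 in the labelled albino arrays. The groups were well apart, with gaps of 0.19 between the control arrays and 0.23 between the albino arrays against a difference of -0.98 (SE 0.26, limma adjusted p = 0.734). Unlike the 5 ribosomal protein genes that were lower in both pairs, it was lower by more in pair 1 (-1.19) than in pair 2 (-0.76). Both differences lay low among all probe sets, with 2.74% and 2.95% of them lower still.

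**Figure D2:**
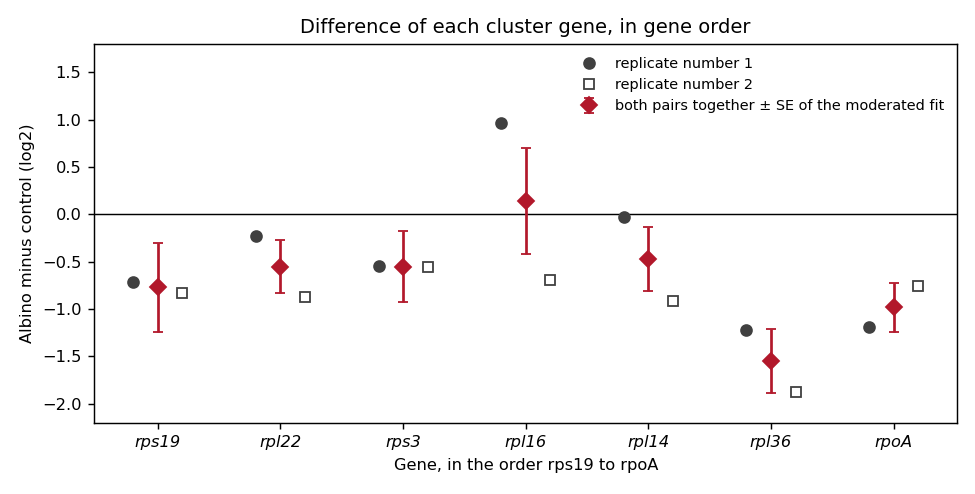
Labelled albino minus labelled control (log2, vertical axis) for each cluster gene in gene order, in pair 1 (filled circles), pair 2 (open squares) and overall (red diamonds with the SE of limma's moderated fit). Overall differences run from -1.55 for rpl36 to 0.14 for rpl16, whose pairs lie on opposite sides of 0.

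Along the gene order, the differences did not form a steady gradient. The first 3 genes had overall differences between -0.77 and -0.55, rpl16 and rpl14 were nearest to 0, and the last 2, rpl36 and rpoA, were lowest. In pair 2 all 7 genes were lower, with values between -1.88 and -0.56. In pair 1 the range was wider, from -1.22 to 0.97. The steps between neighbouring genes were not tested.

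Beyond rpoA the next genes on the plastid genome are petD and petB, both of the cytochrome b6f complex of photosynthetic electron transport. The gene next to rpoA, petD, had a difference of -0.0098 (SE 0.30), and its pairs disagreed in sign (0.35 and -0.37). The gene petB, one step further, was higher in both pairs and had an overall difference of 2.31 (SE 0.34, limma adjusted p = 0.59). Neighbouring genes of the plastid genome thus ran from 2.31 to -1.55 on the log2 scale between petB and rpl36. At the other end, rpl2 and rpl23 come before rps19 in the order used here. Neither had a single-gene probe set, and they are not analysed here.

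**Figure D3:**
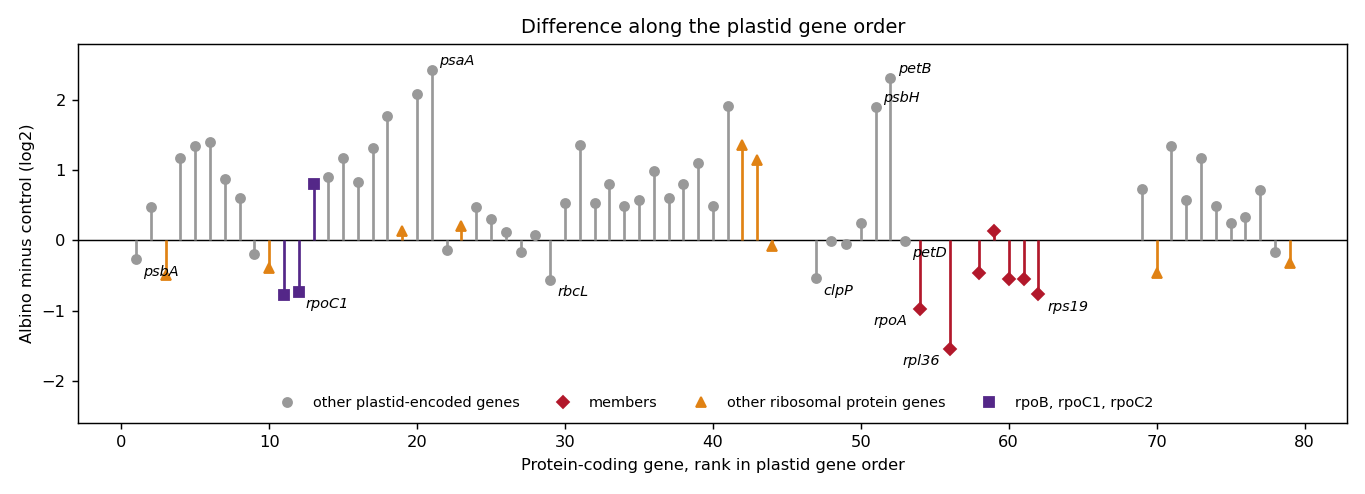
Overall difference, labelled albino minus labelled control (log2, vertical axis), of the 69 measured plastid-encoded genes against their rank in plastid gene order, with cluster members in red, other polymerase subunit genes in purple and other ribosomal protein genes in orange. The members form a run below 0 broken by rpl16, and petD at -0.0098 lies between rpoA and the higher petB (2.31) and psbH (1.90).

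Set against the other plastid-encoded genes, most members lay at the low end. Over the 62 others the median difference was 0.53 (0.94 in pair 1 and 0.17 in pair 2; 0.12 without albino replicate 1 and 0.90 without albino replicate 2), 37 were higher in both pairs and 6 were lower in both. Over all probe sets 34.6% were higher in both pairs, and none of the members was. Ranked by overall difference among all 69, rpl36 was lowest, rpoA came next and rps19 was at rank 4, with rps3 and rpl22 at ranks 7 and 8, rpl14 at 11 and rpl16 at 27. The median of the members minus that of all 69 genes was -1.04. These are descriptions of the same arrays, because 2 arrays against 2 allow no exact two-sided permutation p below 0.333. After each array was centred on the median of its plastid-encoded genes, the difference was -2.24 for rpl36 and -1.66 for rpoA. Both then had a limma adjusted p under 0.05 (0.00203 and 0.05 after rounding), a call that 2.34% of all probe sets met in the same direction. With this centring every member had the same SE, 0.514, so the test did not use each gene's own spread. That centring lowers every gene on the array by the shift of the plastid transcripts, so it sets the members against plastid RNA and not against total RNA.

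**Figure D4:**
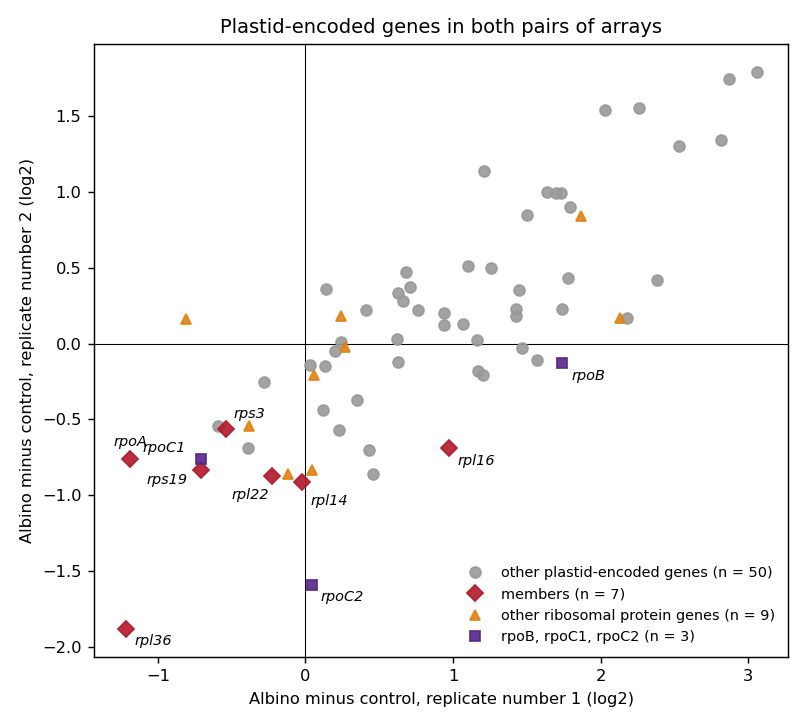
Difference (log2) in pair 1 (horizontal axis) against pair 2 (vertical axis) for the 69 plastid-encoded genes, with the 7 members as red diamonds, rpoB, rpoC1 and rpoC2 as purple squares, 9 other ribosomal protein genes as orange triangles and 50 other genes in grey. The members other than rpl16 lie at the lower left, while 37 of the other genes lie at the upper right.

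Plastid ribosomal protein genes other than the members did not share one direction. The 9 measured of 15 listed centred on a median of -0.075 (pair 1, 0.056; pair 2, -0.02), with 2 lower and 3 higher in both pairs, and 0 passed limma's adjusted threshold. Without 1 array this median ran from -0.35 to 0.36, so its sign is not settled. The lowest was rps16, of the small subunit, at -0.49 (SE 0.30), and the highest rpl33, of the large subunit, at 1.36 (SE 0.44). The gene rpl33 and its neighbour rps18 (1.15, SE 0.73) lie in a stretch with photosynthesis genes, as psaJ (1.92) precedes them.

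The 3 other core polymerase genes lie together in the order rpoB, rpoC1, rpoC2, away from rpoA. One of them resembled rpoA in both pairs. The beta-prime subunit gene rpoC1 had differences of -0.71 and -0.76 in the pairs, against -1.19 and -0.76 for rpoA. The gene rpoC2 was the lowest of the 3 at -0.78 (SE 0.55), with 0.041 in pair 1 and -1.59 in pair 2. The gene rpoB, which codes for the beta subunit, was the highest at 0.80 (SE 0.49), with 1.74 and -0.13. The pairs therefore disagreed in sign for rpoC2 and rpoB, and only rpoA and rpoC1 of the 4 core subunit genes had groups that did not overlap.

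Genes of the photosynthetic apparatus mostly had higher values in the albino plants. The 33 measured genes of the photosystems, cytochrome b6f complex, ATP synthase and Rubisco had a median difference of 0.88, and 24 of them were higher and 2 lower in both pairs. This median was 1.43 in pair 1 against 0.23 in pair 2, and 0.41 without albino replicate 1. All 5 photosystem I genes were higher in both pairs, from psaC at 1.18 (SE 0.49) to psaA at 2.43 (SE 0.38). The 15 photosystem II genes ran from psbA at -0.27 (SE 0.25) to psbH at 1.90 (SE 0.30), with 12 higher in both pairs. The cytochrome b6f genes ran from petD to petB, as given above, and the ATP synthase genes from atpI at -0.20 (SE 0.37) to atpA at 1.40 (SE 0.56). The large Rubisco subunit gene rbcL, at -0.56 (SE 0.42), was the photosynthesis gene with the lowest difference. Of the 10 NDH complex genes, which code for a dehydrogenase of cyclic electron flow, 5 were higher and 0 lower in both pairs. Among all probe sets these shares were 34.6% and 28.5%. The NDH genes ran from ndhH at -0.17 (SE 0.30) to ndhF at 0.73 (SE 0.67). Their median was 0.64 in pair 1 but -0.012 in pair 2, and it was -0.073 without albino replicate 1. The 7 remaining genes ran from clpP, a protease subunit gene, at -0.54 (SE 0.31) to ccsA, which acts in cytochrome assembly, at 1.35 (SE 0.29). None of these genes passed limma's adjusted threshold.

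**Figure D5:**
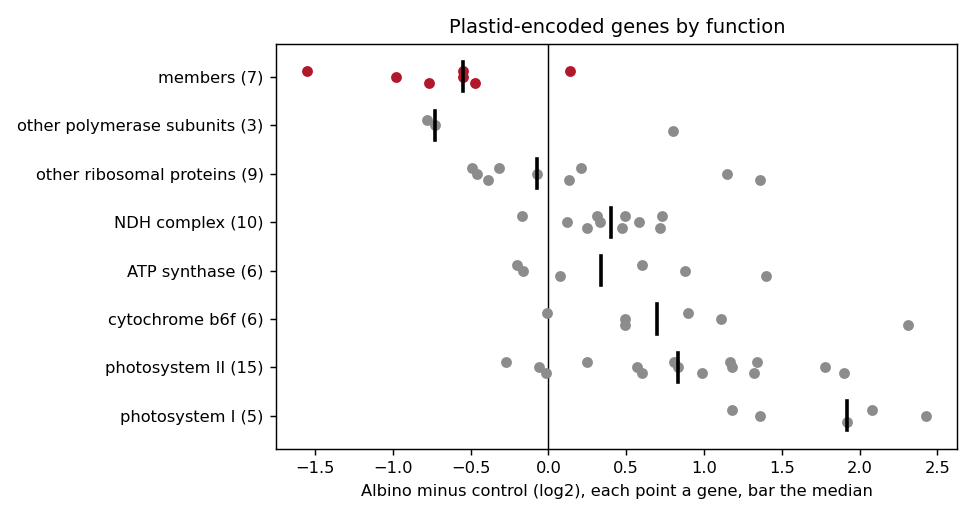
Overall difference (log2, horizontal axis) of each measured plastid-encoded gene, grouped by function, with 1 point per gene, the number of genes in brackets and a black bar at the median. The members (red) have a median of -0.55, the other ribosomal protein genes -0.075 and the photosystem I genes 1.92.

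The plastid genes whose differences in the pairs lay nearest to the members' median were rpoC1 (Euclidean distance 0.18 on the log2 scale), clpP (0.205), rbcL (0.299), rpl32 (0.343) and rps16 (0.428), of 62 candidates. For clpP the differences were -0.39 and -0.69, and for the large-subunit gene rpl32 -0.38 and -0.54. The genes nearest to rpoA alone were rpoC1 (0.485), rbcL (0.641), clpP (0.801), rpl32 (0.845) and rps15 (1.0). Among 13287 genes of the other genomes the nearest to the members' median were AT5G11810 (0.022), AT3G10930 (0.0468), AT1G20180 (0.0484), AT3G24460 (0.0517) and AT5G48290 (0.0555). Likeness here rests on 2 values per gene.

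Other RNAs on the same arrays also showed differences, though none of the markers measured passed limma's adjusted threshold. Of 10 measured transcripts encoded in the mitochondrial genome, 7 were higher and 1 lower in both pairs, with a median difference of 0.45. Over all probe sets 34.6% were higher and 28.5% lower in both pairs. The lowest of the 10 was cox2 at -0.31 (SE 0.30) and the highest nad5 at 1.25 (SE 0.31). For PYK10, an abundant transcript of roots, the difference was -1.48 (SE 0.47) and was larger in size in pair 1 (-2.29) than in pair 2 (-0.67). Both other root markers measured were dim, EXPA7 with a difference of -0.28 (SE 0.35) and EXPA18 with 0.22 (SE 0.27). Of the markers listed for leaf mesophyll 0 had a single-gene probe set, so leaf identity was not checked here. The part of root share and of organelle RNA share in the cluster's differences was not tested. The listed nuclear genes for plastid ribosomal proteins, polymerase-associated proteins, sigma factors and phage-type polymerases also had 0 single-gene probe sets found by their symbols and are not analysed here.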

How the data were processed

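The authors deposited log2 values, 1 per probe set and array, made with RMA per the submitters' processing notes. Neither the RMA software nor the arrays it processed together are named there. Per the labels' protocols, 16 µg of total RNA per sample went into cDNA synthesis and 30 µg of labelled cRNA onto the array. The primer of that synthesis was not found in the labels, and it can matter for plastid RNA, much of which lacks a long poly(A) tail. RMA values carry no detection call, and differences of dim probe sets are compressed. Array medians were 5.84 and 5.85 for number 1 and 6.12 and 6.12 for number 2. Quantiles differed by at most 0.0702 and 0.085 within the numbers and by up to 0.354 between them. The number of arrays limits the precision.

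Groups came from the sample titles. Nothing in the labels says that replicates came from separate plants, so the p-values reflect the spread among 4 arrays, which may be technical. The platform annotation named 1 gene for 13513 of 22746 probe sets, several for 503 and none for 8730, and 13436 matched a RefSeq record of TAIR10.1 by gene ID and 18 by mitochondrial symbol. That assembly gave names and gene order only. Where a gene had several such probe sets, the brightest on average stood for it.

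Differences (labelled albino minus labelled control) were fitted to the whole table by limma 3.58.1 (R 4.3.3; lmFit, then eBayes with its default prior; two-sided; 2 residual degrees of freedom), and p-values were adjusted by Benjamini-Hochberg over every probe set, at a threshold of 0.05. SEs are those of this moderated fit and include differences between the replicate numbers. The script was tested on simulated data with noise drawn separately for each array. Ties between arrays of the same number were not simulated, so that run does not show how the fit behaves under them. The members, gene lists and tests were chosen with earlier results of these data known. Named genes were the members, their neighbours, the extremes of each list, the other core polymerase genes and those nearest in pattern. Alternatives were other scalings, filters on dim or cross-hybridizing probe sets, other variance priors, the replicate block, averaged probe sets per gene, and each array left out.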

Additional observations from a re-analysis of the deposited data

How the results depend on the processing

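The count of 6 members lower in both pairs was the same after quantile normalization, centring on the brighter probe sets and cyclic loess. The filters kept every member, and they, the priors and the replicate block leave the pair differences as they are. Those settings therefore could not change the count. It has no value with an array left out, which breaks a pair, and was not computed after centring on plastid genes or with averaged probe sets. The count of members called was 0 under every setting but the plastid centring, in which rpl36 and rpoA passed with an SE that all members shared. Over all probe sets, limma called 0 except with no variance moderation (1, lower), without albino replicate 2 (182, of which 30 were higher and 152 lower) and after plastid centring (21 higher and 533 lower), so leaving out 1 array gave 0 to 182, and 1310 had an unadjusted p under 0.05. The cluster's median difference moved to -1.24 when arrays were centred on plastid-encoded genes, which shifts the median of all probe sets to -0.66, and ran from -0.88 to -0.27 without 1 array. Relative to all plastid-encoded genes it ran from -1.32 to -0.89 without 1 array. A fit without 1 array has a group of 1, assumed to vary like the other group. Of the members, rpl16 alone changed sign, in 2 of 15 alternatives, to -0.54 after plastid centring and -0.70 without control replicate 1. The filters, priors, block and averaged probe sets leave each member's difference as it is. Only the other scalings and the left-out arrays could have changed a sign. For the changes without 1 array, the cause was not tested.

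With the replicate number as a block (1 residual degree of freedom) 0 probe sets were called. The block's limma adjusted p was 0.217 for rps19, rpl36 and rpoA, 0.26 for rps3 and 0.364 to 0.907 for the other members. At an unadjusted p under 0.05 it gave 4 members as lower (rps19, rps3, rpl36 and rpoA) in place of 2, against 7.53% of all probe sets. Deviations of same-numbered arrays from their group means correlated at 0.662 across probe sets, but no label ties a number to shared plants, and 2 pairs cannot show it.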
